A study of Homo sapiens with 29 samples.

Results

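The genes described here are the longest genes that HCT116 cells express. A gene was taken when its end minus its start, as the deposited RNA table places them on GRCh38, was at least 500 kb and its level was at least -2 on the log2 RPM scale (RPM, the reads of a gene scaled to a common library total; the limit equals 0.25 RPM) in 4 or more of the 16 RNA libraries. Collagen, laminin, semaphorin, plexin, ephrin receptor, ROBO, SLIT, UNC5, protocadherin and teneurin genes were left out by symbol, which removed 3 expressed genes. This left 178 genes of the 17973 that passed the level floor and of the 38148 in the table, and 228 further long genes lay under the floor. The level rule used RNA values, so the levels of the 178 genes are described without a test.

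HCT116 is a human colorectal carcinoma line, and the cells received 35 nM siRNA against DAXX or 25 nM non-targeting siRNA. Each siRNA was used without and with 10 mM crotonate, a short-chain fatty acid, for 18 h according to the series text and for 48 h according to the sample protocol. RNA was measured in 4 libraries for each of the 4 combinations. Lysine crotonylation (Kcr) was measured by ChIP with a pan antibody in 4 libraries for each siRNA without crotonate and 2 for each siRNA with it, and libraries 1A and 1B of a group were counted as 1 sample. The groups therefore differ in siRNA dose as well as target, all of them come from a single cell line, and the labels do not state whether replicates were separate cultures, so the p-values measure the spread between these libraries.

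A very long gene takes RNA polymerase II many hours to transcribe, and most of its span is intron. Its output depends on start site use, on elongation without premature termination, and on correct splicing over long introns. Many of the longest human genes serve nerve cells, where they encode adhesion molecules, channels and synaptic scaffolds, and a number of them lie at common fragile sites, regions that break when replication is stressed. Crotonate is converted in cells to crotonyl-CoA, the donor for crotonylation of histones, and DAXX deposits the H3.3 histone variant into chromatin.

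DAXX RNA checked the siRNA labels. It lay between 101 and 105 RPM in the 4 non-targeting libraries, between 95.2 and 102 RPM in those with crotonate added, between 22.9 and 27.4 RPM after DAXX siRNA and between 13.1 and 24.2 RPM after DAXX siRNA with crotonate. The RNA libraries held 35003617 to 55128007 reads and the Kcr libraries 2226835 to 3639130 reads in regions. Of 18 markers of colon epithelium or of this line, 12 passed the floor; CDX1, CEACAM5, CEACAM6 and TFF3 had no read in any library. Libraries differed in how they represented long and short genes. Non-targeting library 2 stood apart from its group: its median Spearman correlation with the other 3 was 0.987, against 0.994 to 0.995 for those, its genes under 10 kb stood at a median of 0.17 log2 units over the mean non-targeting library, and its long genes at -0.08. Results on the 178 genes are therefore also given without it.

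The long genes spanned 501 to 2305 kb with a median of 706 kb, and 29 of them reached 1000 kb. CNTNAP2, a neurexin-like adhesion protein, was the longest at 2305 kb. DLG2, a synaptic scaffold (2173 kb), EYS, a photoreceptor protein (1987 kb), LRP1B, a lipoprotein receptor family member (1900 kb), and PDE4D, a cyclic AMP phosphodiesterase (1553 kb), followed. At the lower limit, SPOCK3 (501.41 kb), KCNAB1 (501.44 kb) and HDAC2-AS2 (502 kb) were just inside, with mean levels of -0.18, -0.67 and -1.91 log2 RPM over the 16 libraries. DIAPH3 (498.4 kb, 5.65 log2 RPM), ITPR2 (497.8 kb, 3.93) and CACNA2D1 (497.3 kb, -3.06) were the nearest expressed genes outside.

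Of the 178 genes, 165 matched a RefSeq gene by symbol or identifier (151 protein-coding and 14 long noncoding). The RefSeq model also spanned 500 kb or more for 141 of them and was shorter for 24. The 1217 kb given for RUNX1, a transcription factor gene, compares with 261500 bases in RefSeq, and the 859 kb given for the noncoding gene HULC with 1588 bases, so these spans rest on far-reaching transcript models. For 83 of the 178 genes at least 1 other expressed gene overlapped the span, on the same strand for 20, and the strand used in counting is not given in the sources used here. For CNTNAP2, HS6ST3, ST6GALNAC3, ATRNL1, KALRN and PDE4B no other expressed gene did. GRIN2B and NAV2, called with DAXX siRNA below, were each overlapped by 2 expressed genes, 0 of them on the same strand. Other genes called below had expressed genes on the same strand: CDK14 had 2, and FOXP1, AGAP1, MIR100HG and IQCJ-SCHIP1 had 1 each. The part of the overlapping genes in their values was not tested.

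The long genes were weakly expressed as a group. Their median level was 1.97 log2 RPM against 4.12 for shorter expressed genes, RPM not being divided by length. The level floor was met in all 16 libraries by 133 of the 178 genes and in 4 to 15 libraries by 45, and 18 had at least 1 library without a read. Fewer than 4 of the 8 libraries without crotonate reached the floor for 20 genes, and fewer than 4 of the 8 with it for 3 genes. A gene that entered through the crotonate libraries had to be higher there, so the counts with crotonate are also given for the other 158 genes, with the same floor set on the genes beside them.

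The promoters of 5 long genes are shown because these genes had some of the largest changes with crotonate and differ in whether they carry Kcr. CNTNAP2 and HS6ST3 rose and carried no Kcr region anywhere in their span, ST6GALNAC3 and ATRNL1 rose and carried a Kcr region at the start, and PDE4B fell. The sequences are the 250 bases before the RefSeq gene start on GRCh38.p14, plus strand, 5′ to 3′. Capitals mark GC boxes (GGGCGG, or CCGCCC on the other strand), the motif bound by SP family factors.
CNTNAP2, chr7:146116551-146116800: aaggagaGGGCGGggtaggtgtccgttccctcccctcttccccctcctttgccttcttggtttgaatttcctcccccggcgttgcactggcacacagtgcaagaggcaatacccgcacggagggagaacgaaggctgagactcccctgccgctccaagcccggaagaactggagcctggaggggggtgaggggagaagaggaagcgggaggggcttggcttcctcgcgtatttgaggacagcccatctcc
HS6ST3, chr13:96089857-96090106: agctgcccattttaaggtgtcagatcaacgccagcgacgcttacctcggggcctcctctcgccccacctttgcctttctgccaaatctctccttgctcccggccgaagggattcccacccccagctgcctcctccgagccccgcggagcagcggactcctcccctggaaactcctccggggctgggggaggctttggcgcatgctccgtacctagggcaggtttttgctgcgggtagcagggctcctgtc
ST6GALNAC3, chr1:76074496-76074745: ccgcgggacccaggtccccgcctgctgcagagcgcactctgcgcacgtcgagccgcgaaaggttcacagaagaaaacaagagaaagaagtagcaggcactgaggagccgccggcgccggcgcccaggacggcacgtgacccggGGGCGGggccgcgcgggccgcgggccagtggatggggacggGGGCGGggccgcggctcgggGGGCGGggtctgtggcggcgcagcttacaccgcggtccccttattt
ATRNL1, chr10:115093115-115093364: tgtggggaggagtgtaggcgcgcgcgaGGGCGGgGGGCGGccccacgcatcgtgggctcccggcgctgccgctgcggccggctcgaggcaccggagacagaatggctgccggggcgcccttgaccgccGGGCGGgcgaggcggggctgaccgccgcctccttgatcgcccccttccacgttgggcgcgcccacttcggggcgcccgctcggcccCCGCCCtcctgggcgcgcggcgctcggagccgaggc
PDE4B, chr1:65792260-65792509: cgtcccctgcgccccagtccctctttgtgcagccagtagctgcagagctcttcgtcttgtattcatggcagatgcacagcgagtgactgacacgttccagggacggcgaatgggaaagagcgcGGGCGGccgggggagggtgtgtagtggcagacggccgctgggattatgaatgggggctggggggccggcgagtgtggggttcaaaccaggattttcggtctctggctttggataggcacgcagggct
GC boxes numbered 4 in ATRNL1, 3 in ST6GALNAC3, 1 each in CNTNAP2 and PDE4B and 0 in HS6ST3. None of the 5 held TATAAA, TGACGTCA (the cyclic AMP response element) or TGANTCA (the AP-1 site) on either strand. CpG dinucleotides numbered 39 in ATRNL1, 33 in ST6GALNAC3, 17 in PDE4B, 15 in HS6ST3 and 12 in CNTNAP2.

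Promoter sequence was found for 138 of the long genes. A GC box was present in 65 of them (47.1%), against 42.6% of all 35116 RefSeq promoters of this length and 66.1% of 11634 promoters of shorter expressed genes. TATAAA was present in 10.9% of the long genes, 10.7% of all promoters and 5.69% of the shorter expressed genes. The median promoter held 16.5 CpG in the long genes, 21 in the shorter expressed genes and 11 in all. Long genes that rose with crotonate under either siRNA had a GC box in 26 of 47 promoters and a median of 22 CpG, and the other long genes in 39 of 91 with a median of 14. These are counts of letters in a fixed window and no test was made of them.

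Crotonate raised far more long genes than it lowered. With non-targeting siRNA, 45 of the 178 were called higher and 2 lower at an adjusted p under 0.05 in limma. Over all 17973 expressed genes, 13.1% were called higher and 2.34% lower. The median log2 fold change of the long genes was 0.27, against 0.07 for all expressed genes, and 152 of the 178 lay above 0. With DAXX siRNA, 57 were called higher and 2 lower, against 13% and 2.41% of all expressed genes, with a median of 0.29 against 0.06. The call was made under both siRNAs for 41 genes and under at least 1 of them for 61. No library is in both comparisons, but both came from 1 fit and share its estimate of the spread. By overlap alone, 56 long genes were higher in every crotonate library than in any untreated one and 3 lower with non-targeting siRNA, against 16% and 4.11% of all expressed genes, and 59 and 3 with DAXX siRNA, against 14.7% and 3.99%. Calls in either direction made up 15.4% of all expressed genes under each siRNA.

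**Figure D1:**
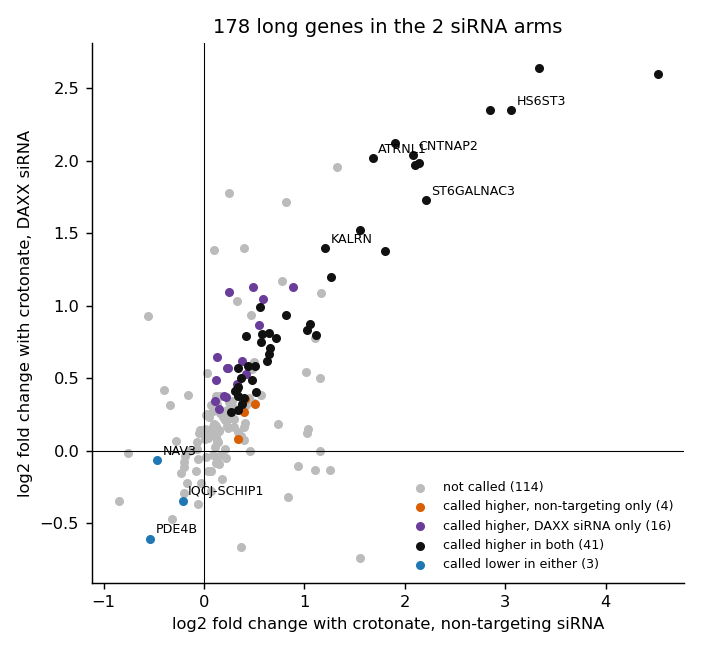
Each point is 1 of the 178 long genes. The x axis gives the log2 fold change with crotonate under non-targeting siRNA and the y axis the same under DAXX siRNA, from 4 libraries a group, and colours give the calls. The 41 genes called higher in both lie to the upper right, and PDE4B is the gene called lower in both.

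Counts without the 20 genes that depend on the crotonate libraries were similar in share: 39 of the remaining 158 were called higher with non-targeting siRNA and 51 with DAXX siRNA, with medians of 0.24 and 0.27. Under the same floor, 13.1% of 17192 expressed genes were called higher under each siRNA. Of those 20, 6 were called higher under each siRNA. Among the 127 long genes with a mean of at least 0 log2 RPM, 35 and 45 were called higher. Without non-targeting library 2, 43 genes were called higher and 3 lower with non-targeting siRNA, and 63 higher and 3 lower with DAXX siRNA, whose fit shares the estimate of the spread. The shares of all expressed genes in that fit are not given here, so these counts have no background beside them. The fold change was at least 1 on the log2 scale for 17 of the 45 genes and 18 of the 57.

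RPM values are relative to the whole library, and crotonate shifted the median gene. When each library was centred on its median gene, the median log2 fold change of all expressed genes moved from 0.07 to -0.05 with non-targeting siRNA and from 0.06 to -0.05 with DAXX siRNA. The long genes then had medians of 0.14 and 0.17, with 29 called higher and 7 lower, and 44 higher and 5 lower. All expressed genes then had 8.11% called higher and 9.46% lower with non-targeting siRNA, and 8.43% and 8.28% with DAXX siRNA. Quantile scaling gave 29 higher and 6 lower, and 37 higher and 4 lower, with medians of 0.11 and 0.13. All expressed genes then had 7.92% called higher and 5.62% lower with non-targeting siRNA, and 8.06% and 4.74% with DAXX siRNA. Their medians were -0.03 under each siRNA. Directions of the long genes as a group were thus upward on each scale, while the number of calls depended on it.

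The share of genes raised by crotonate climbed with gene span. With non-targeting siRNA, 7.4% of genes under 10 kb were called higher, 10.6% of those from 10 to 50 kb, 17.2% from 50 to 100 kb, 22.7% from 100 to 200 kb and 28.5% from 200 to 500 kb, against 25.3% of the 178 long genes. With DAXX siRNA the shares were 7.28%, 10.9%, 16.3%, 21.7%, 28.7% and 32%. The median log2 fold change climbed over the same classes from 0.02 to 0.27 and from 0.02 to 0.29. Among the long genes themselves the share did not climb further: it was 23.6% in the 89 longest and 27% in the other 89 with non-targeting siRNA, and 32.6% and 31.5% with DAXX siRNA. With the floor set on libraries without crotonate, the classes from shortest to longest had 7.41%, 10.5%, 17.2%, 22.9%, 28.7% and 24.7% with non-targeting siRNA and 7.29%, 10.9%, 16.3%, 21.8%, 28.9% and 32.3% with DAXX siRNA.

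**Figure D2:**
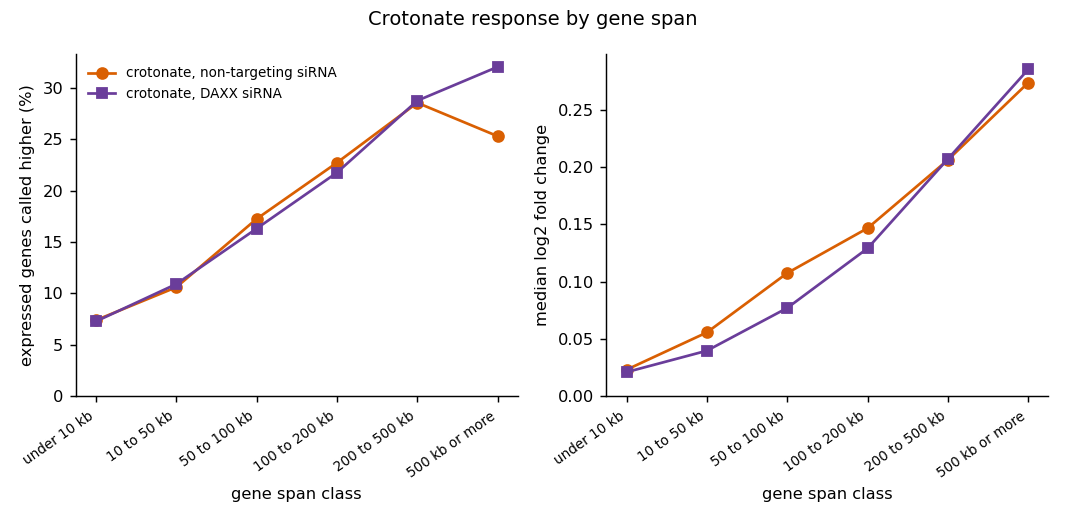
Expressed genes are grouped by span (x axis), the last class being the 178 long genes. The left panel gives the percentage called higher with crotonate and the right panel the median log2 fold change; circles are non-targeting siRNA and squares DAXX siRNA. The values climb from 7.4% and 7.28% in genes under 10 kb to 25.3% and 32% in the long genes.

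Long genes were also set beside shorter genes of like level. Shorter genes were weighted to the 4 level classes of the long genes, of near equal size, with limits at -0.30, 1.97 and 4.15 log2 RPM. With these weights 13.8% of shorter genes were called higher with non-targeting siRNA and 13.4% with DAXX siRNA, with median fold changes of 0.15 and 0.13. From the lowest to the highest level class, 17.8%, 20.5%, 31.8% and 31.1% of long genes were called higher with non-targeting siRNA, against 7.66%, 15.9%, 21.6% and 10.2% of shorter genes. With DAXX siRNA the long genes had 17.8%, 36.4%, 38.6% and 35.6%, against 7.07%, 15.5%, 20.8% and 10.5%. All 20 genes that depend on the crotonate libraries were in the lowest class, and with the floor set on libraries without crotonate it held 2 of 25 long genes called higher under each siRNA (8%), against 6.2% and 5.39% of shorter genes. Restricted to official symbols, the weighted shares of shorter genes rose to 17.4% and 16.8%, against 26.2% and 32.9% of 164 long genes. In the class next to the lowest, official symbols gave 21.6% of long and 22.4% of shorter genes with non-targeting siRNA. The span given by RefSeq also went with the share: 40 of 141 genes that RefSeq also puts at 500 kb or more were called higher with non-targeting siRNA and 3 of 24 that RefSeq puts lower, and 51 and 3 with DAXX siRNA. No test was made of long against shorter genes.

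Single libraries within a group also differed along gene span. Relative to the mean non-targeting library, the median long gene stood at 0.22 to 0.47 log2 units in the DAXX siRNA libraries with crotonate, at 0.26 to 0.34 in the non-targeting libraries with crotonate, at 0.01 to 0.06 after DAXX siRNA alone and at -0.08 to 0.11 in the non-targeting libraries themselves. The groups with and without crotonate did not overlap. These medians include the 20 genes that depend on the crotonate libraries and had to be higher there. Long genes at or above 1.97 log2 RPM hold none of the 20. Their median stood at 0.17 to 0.45 with DAXX siRNA and crotonate and at 0.16 to 0.24 with non-targeting siRNA and crotonate. It stood at 0.01 to 0.07 after DAXX siRNA alone and at -0.09 to 0.07 in the non-targeting libraries. After the shorter genes of like level were subtracted, the difference was -0.17 to 0.06 without and 0.08 to 0.15 with crotonate under non-targeting siRNA, still without overlap. Under DAXX siRNA it was -0.03 to 0.09 without and 0.07 to 0.33 with crotonate, so that library 4 with crotonate fell inside the range of the untreated libraries. The subtracted values are not given without the 20 genes. The part that differences between libraries in representing long RNA play in the span gradient was not tested.

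**Figure D3:**
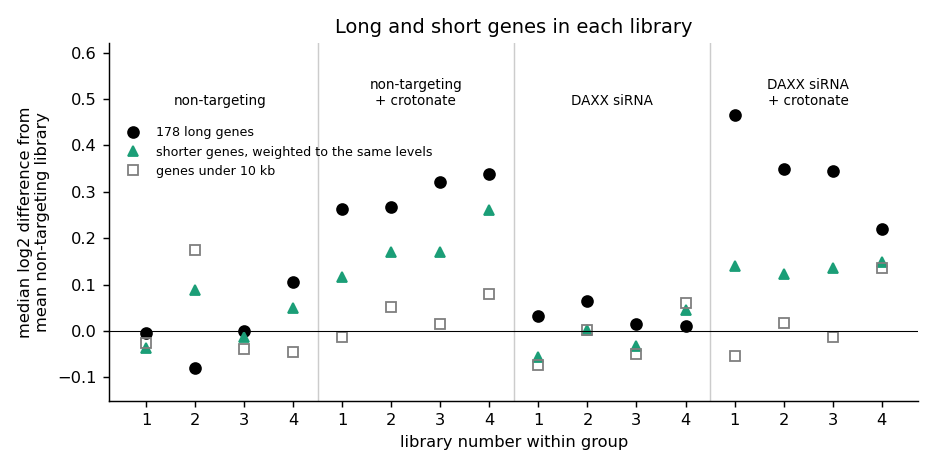
Each column is 1 RNA library. The y axis gives the median log2 difference from the mean non-targeting library for the 178 long genes (circles), shorter genes weighted to the same levels (triangles) and genes under 10 kb (squares). Long genes sit at 0.22 to 0.47 in the 8 libraries with crotonate. They include the 20 genes that depend on those libraries to reach the floor. In non-targeting library 2 the genes under 10 kb lie above the long genes.

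A large rise at a level of several RPM was that of CNTNAP2 (ENSG00000174469, chr7:146116002-148420998), which helps cluster potassium channels along axons. It measured 2.1, 3.22, 2.86 and 4.52 RPM in the non-targeting libraries and 14.3, 11.6, 12.8 and 13.2 RPM with crotonate. With DAXX siRNA it measured 2.49, 2.33, 2.38 and 2.52 RPM, and 10.5, 11.5, 10.0 and 8.25 RPM with crotonate. Every crotonate library was above every untreated library under either siRNA. The mean rose from 3.18 ± 1.01 to 13.0 ± 1.12 RPM (SD, n = 4; log2 fold change 2.08, SE 0.169, adjusted p = 1.42e-07) and from 2.43 ± 0.0917 to 10.1 ± 1.36 RPM (2.04, adjusted p = 1.76e-07).

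ST6GALNAC3 (ENSG00000184005, chr1:76074746-76634603) encodes a sialyltransferase of glycolipids and glycoproteins. It measured 0.817, 0.563, 0.963 and 0.538 RPM in the non-targeting libraries and 3.66, 3.11, 2.75 and 3.44 RPM with crotonate. After DAXX siRNA it measured 0.863, 0.658, 0.823 and 1.04 RPM, and 2.62, 2.88, 2.75 and 2.85 RPM with crotonate. The groups did not overlap, and the log2 fold change was 2.21 (SE 0.204, adjusted p = 4.57e-07) with non-targeting and 1.73 (adjusted p = 7.91e-06) with DAXX siRNA. HS6ST3 (ENSG00000185352, chr13:96090839-96839562), which sulfates heparan sulfate at the 6-O position, was near the floor without crotonate. Its untreated non-targeting libraries held 0.117, 0.113, 0.374 and 0.122 RPM and those with crotonate 1.03, 1.46, 0.943 and 2.04 RPM. With DAXX siRNA the values were 0.279, 0.405, 0.0851 and 0.286 RPM without and 1.31, 1.16, 1.19 and 1.03 RPM with crotonate. The groups were separate under each siRNA, with log2 fold changes of 3.06 (SE 0.457, adjusted p = 9.9e-05) and 2.35 (adjusted p = 0.00124), which carry the large errors of a few reads.

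KALRN (ENSG00000160145, chr3:124080023-124726325), a guanine nucleotide exchange factor with a kinase domain, gave the tightest of the large changes. It measured 3.47, 3.47, 3.21 and 3.44 RPM in the non-targeting libraries and 8.21, 8.41, 7.36 and 7.48 RPM with crotonate. With DAXX siRNA it measured 3.15, 2.6, 2.72 and 2.84 RPM, and 7.58, 8.12, 6.62 and 7.51 RPM with crotonate. All 8 libraries with crotonate were above all 8 without. The log2 fold change was 1.21 (SE 0.107, adjusted p = 3.12e-07) and 1.40 (adjusted p = 6.92e-08). ATRNL1 (ENSG00000107518, chr10:115093365-115948999), a relative of attractin, measured 0.321, 0.788, 0.455 and 0.782 RPM without and 2.26, 1.69, 1.39 and 1.8 RPM with crotonate under non-targeting siRNA. With DAXX siRNA it measured 0.381, 0.556, 0.681 and 0.234 RPM without and 1.29, 2.0, 1.67 and 2.12 RPM with crotonate. Its log2 fold changes were 1.68 (adjusted p = 0.00156) and 2.02 (adjusted p = 0.000291).

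**Figure D4:**
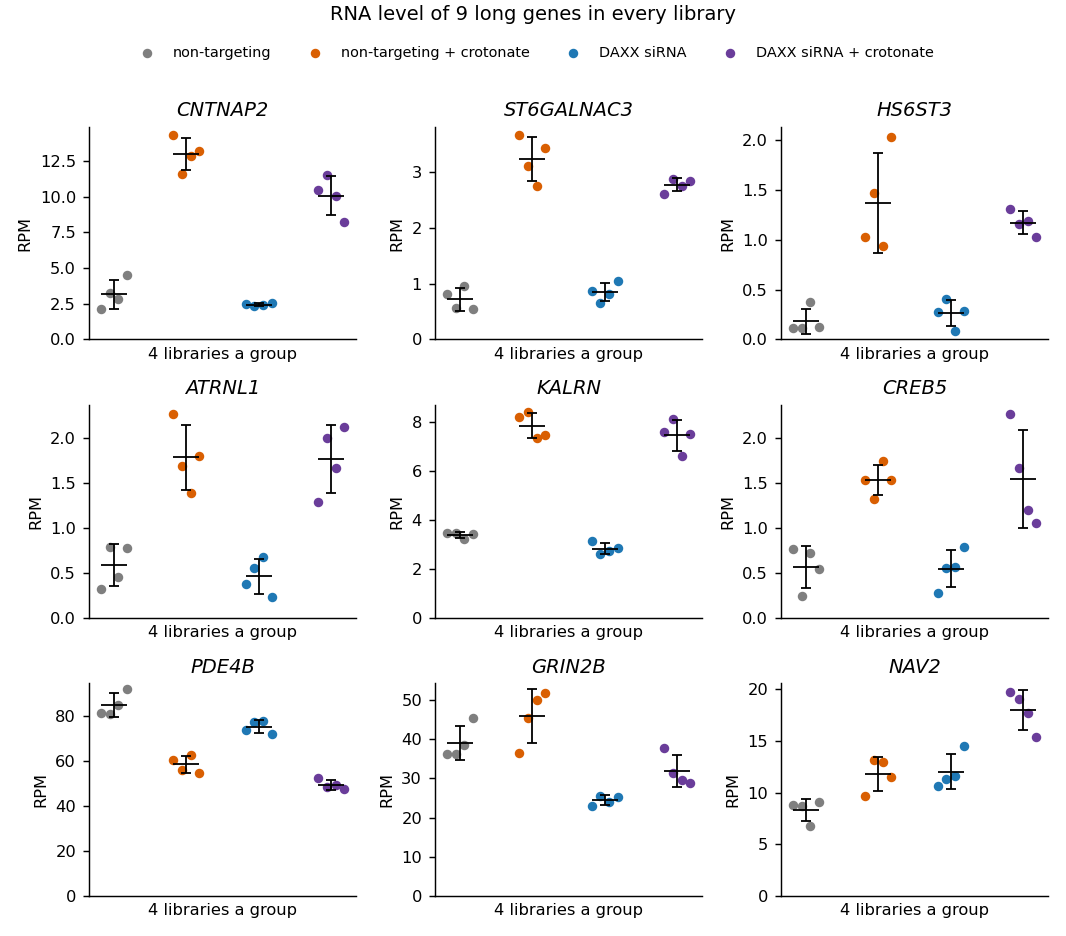
RNA level in RPM (y axes, starting at 0) of 9 long genes, with 1 point per library, 4 libraries a group, and bars for mean and SD. CNTNAP2, ST6GALNAC3, HS6ST3, ATRNL1, KALRN and CREB5 are higher in every library with crotonate than in any without it under the same siRNA; PDE4B is lower in every one. GRIN2B is lower with DAXX siRNA than with non-targeting siRNA when crotonate is absent.

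The other genes with large rises had lower levels or were larger under a particular siRNA. PRKG1, the cyclic GMP-dependent protein kinase, rose from 0.352 to 1.17 RPM with non-targeting and from 0.567 to 1.42 RPM with DAXX siRNA (log2 fold changes 1.80 and 1.38, adjusted p = 0.000309 and 0.00333). CREB5, a leucine zipper transcription factor, rose from 0.566 to 1.53 RPM and from 0.546 to 1.54 RPM (1.55 and 1.52). CPQ, a secreted peptidase, rose from 0.671 to 1.55 RPM and from 0.714 to 1.62 RPM (1.27 and 1.20). These 3 genes had no overlap between groups with and without crotonate under either siRNA. HDAC9, a class IIa histone deacetylase, rose from 2.06 ± 0.562 to 4.34 ± 0.27 RPM with non-targeting siRNA (1.11, adjusted p = 0.00154) and from 1.75 to 3.01 RPM with DAXX siRNA, where groups overlapped (0.80, adjusted p = 0.0176). DNM3, a dynamin of membrane fission, rose from 2.3 to 4.77 RPM and from 2.44 to 4.45 RPM (1.06 and 0.87).

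KIF26B, a kinesin family member, was called with DAXX siRNA, where it went from 2.08 ± 0.667 to 4.26 ± 0.271 RPM (log2 fold change 1.10, adjusted p = 0.00143). With non-targeting siRNA it measured 2.61 ± 0.667 and 3.07 ± 0.598 RPM (0.25, adjusted p = 0.495). MCTP1, a calcium-binding membrane protein, likewise went from 0.472 to 1.06 RPM with DAXX siRNA (1.13, adjusted p = 0.00136) and measured 0.895 and 1.26 RPM with non-targeting siRNA (0.49, adjusted p = 0.158). The interaction, which tests the difference between siRNAs, was called for neither gene (adjusted p = 0.995 for each). It was called for 0 of the 178 long genes and 0 of all 17973 in limma, the background being 0%. At an unadjusted p under 0.05 it counted 5 long genes in limma (2.81%, against 2.41% of all genes) and 6 in limma-voom (3.37%, against 2.46%).

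PDE4B (ENSG00000184588, chr1:65792514-66374579), a cyclic AMP phosphodiesterase and among the 8 most abundant long genes, went against the group. It measured 81.6, 81.2, 84.9 and 92.3 RPM in the non-targeting libraries and 60.7, 56.0, 62.6 and 55.0 RPM with crotonate. With DAXX siRNA it measured 74.1, 77.4, 78.1 and 72.0 RPM, and 52.5, 48.5, 49.4 and 47.4 RPM with crotonate. No library with crotonate reached the lowest without, and the log2 fold change was -0.54 (SE 0.0697, adjusted p = 2.14e-05) and -0.61 (adjusted p = 5.79e-06). NAV3, a microtubule-binding neuron navigator, was called lower with non-targeting siRNA, from 22.4 ± 2.5 to 16.2 ± 1.06 RPM (-0.46, adjusted p = 0.0183). With DAXX siRNA it measured 24.0 ± 0.436 and 23.4 ± 6.23 RPM (-0.07, adjusted p = 0.793), and the interaction was not called (adjusted p = 0.995). Leaving out non-targeting library 1 or 3, or crotonate library 1 of that arm, ended the NAV3 call (adjusted p = 0.0544, 0.0502 and 0.0606). IQCJ-SCHIP1, a readthrough gene, was called lower with DAXX siRNA, from 11.9 ± 0.935 to 9.38 ± 0.712 RPM (-0.35, adjusted p = 0.048), a call that 15 of 25 other settings ended.

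Of the 8 most abundant long genes, LRBA, GSE1, DOCK1, AGAP1 and PARD3 were not called with crotonate under non-targeting siRNA. LRBA, a vesicle trafficking protein, averaged 133 RPM in non-targeting cells and 144 RPM with crotonate (log2 fold change 0.11, adjusted p = 0.431). GSE1, a coiled-coil protein, measured 122 and 123 RPM (0.01, adjusted p = 0.954), and DOCK1, a Rac activator, 80.5 and 81.1 RPM (0.01, adjusted p = 0.937). AGAP1, an Arf GTPase-activating protein, measured 80.9 and 86.9 RPM (0.11, adjusted p = 0.532) and was called with DAXX siRNA, from 78.3 to 99.4 RPM (0.34, adjusted p = 0.0203). PARD3, a cell polarity protein, measured 63.4 and 68.4 RPM (0.11, adjusted p = 0.389). The exceptions among these 8 besides PDE4B were ERC1, a scaffold of vesicle docking, and MIR100HG, the host transcript of a microRNA cluster. ERC1 rose from 59.5 ± 0.66 to 74.9 ± 2.93 RPM (0.33, adjusted p = 0.00537) and from 57.9 ± 2.72 to 75.6 ± 9.54 RPM (0.38, adjusted p = 0.00206). MIR100HG rose from 61.7 ± 9.8 to 80.7 ± 6.1 RPM with non-targeting siRNA (0.40, adjusted p = 0.00751) and measured 61.2 ± 2.44 and 73.8 ± 4.98 RPM with DAXX siRNA (0.27, adjusted p = 0.0724).

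By role, each list held genes that rose under at least 1 siRNA, and its counts stand against 13.1% and 13% of all expressed genes called higher and 2.34% and 2.41% lower. Of 12 genes of the cytoskeleton and its motors, 6 rose and 1 fell with non-targeting siRNA and 7 rose with DAXX siRNA (median log2 fold changes 0.38 and 0.51, against 0.07 and 0.06 over all expressed genes); MTUS2, a microtubule-associated protein, was 1 of those 6 and reached the floor through the crotonate libraries. CDK14, a kinase of the cyclin-dependent family placed on this list, rose from 10.96 ± 1.02 to 17.2 ± 0.729 RPM (0.65), SYNE1, a giant linker of nucleus and actin, from 5.36 ± 1.05 to 7.85 ± 0.608 RPM (0.57) and UTRN, the dystrophin relative utrophin, from 19.6 ± 1.81 to 27.4 ± 3.44 RPM (0.48) with non-targeting siRNA. Of 7 channel and neurotransmitter receptor genes, 3 rose with non-targeting and 4 with DAXX siRNA (medians 0.22 and 0.62), and of the 4 at the floor without crotonate 1 and 2 did. GRID1, a glutamate receptor of the delta family, rose from 5.91 ± 1.22 to 9.03 ± 0.842 RPM (0.63). GRIK2 and CACNA1C, a kainate receptor and a calcium channel subunit, were also called but stayed under 1 RPM in every group mean, at 0.58 and 0.386 RPM with non-targeting siRNA and crotonate. Both passed the floor through crotonate libraries alone, so a higher level there was a condition of their being included. The summed level of markers of other cell types, of which 11 of 23 genes passed the floor, also rose in group mean. It was 183 to 246 RPM in non-targeting libraries and 240 to 267 RPM with crotonate. With DAXX siRNA it was 168 to 194 and 188 to 254 RPM. TUBB3, a neuronal tubulin, made up most of it, with means of 179 and 219 RPM, and 154 and 189 RPM. CD68 fell from 10.4 to 8.57 RPM with non-targeting siRNA and rose with DAXX siRNA. DCN, INS, LUM and MYH7 had no read in any library. The sum of the 18 markers of colon epithelium or of this line moved the other way in group mean. It was 4404 to 5198 RPM in non-targeting libraries and 4144 to 4365 RPM with crotonate. With DAXX siRNA the ranges overlapped, at 4927 to 5377 and 4475 to 5376 RPM. The part of these markers in the result was not tested.

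Of 14 adhesion and recognition genes, 4 rose under each siRNA (medians 0.23 and 0.30): CNTNAP2, GPC5, a cell surface glypican, KIAA1217, a coiled-coil protein, and MAGI1, a junctional scaffold. GPC5 reached the floor in the 8 crotonate libraries alone, and of the 11 genes at the floor without crotonate 3 rose under each siRNA. MAGI1 rose from 43.6 ± 3.0 to 55.1 ± 2.22 RPM with non-targeting siRNA (0.34, adjusted p = 0.00243). Of 17 transcription and RNA regulators, 4 rose with non-targeting and 5 with DAXX siRNA (medians 0.32 and 0.28). Besides HDAC9 and CREB5 these were CAMTA1, a calmodulin-binding transcription activator, from 27.5 ± 2.41 to 39.3 ± 3.25 RPM (0.51), and SMYD3, a lysine methyltransferase, from 15.6 ± 1.02 to 19.6 ± 0.753 RPM (0.32), with FOXP1, a forkhead factor, added with DAXX siRNA (0.62). Of 52 signalling enzymes and scaffolds, 13 rose and 1 fell, and 19 rose and 1 fell (medians 0.28 and 0.30), the gene that fell being PDE4B; of the 48 at the floor without crotonate, 11 and 17 rose. Of 4 receptor phosphatase and receptor kinase genes, 0 were called with non-targeting siRNA and 1, PTPRN2, a phosphatase-like protein of secretory granules, with DAXX siRNA (0.57, adjusted p = 0.0206). Of the 72 genes in none of these lists, 16 rose and 0 fell, and 18 rose and 1 fell.

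Common fragile site genes made up 34 of the 178. Of these, 6 rose with non-targeting siRNA and 9 with DAXX siRNA, and 0 fell (medians 0.15 and 0.27). Of the 28 at the floor without crotonate, 4 rose with non-targeting siRNA (14.3%) and 7 with DAXX siRNA (25%). Under that floor, 13.1% of all expressed genes were called higher under each siRNA, and 24.7% and 32.3% of the long genes. The share with non-targeting siRNA was thus near that of all expressed genes. CNTNAP2, PRKG1, DPYD, EXOC4 and GPC5 were among those that rose under each siRNA. DPYD, which degrades pyrimidines, rose from 1.43 ± 0.309 to 2.87 ± 0.338 RPM (1.02, adjusted p = 0.000164), and EXOC4, an exocyst subunit, from 27.8 ± 1.7 to 33.4 ± 0.633 RPM (0.26, adjusted p = 0.0344). FHIT, FOXP1 and NBEA were called with DAXX siRNA and not with non-targeting siRNA: FHIT, a dinucleoside hydrolase at the site FRA3B, went from 1.93 ± 0.44 to 2.98 ± 0.377 RPM (0.65, adjusted p = 0.0227) and measured 2.27 and 2.44 RPM with non-targeting siRNA. The interaction was called for none of these (adjusted p = 0.995 each). WWOX, an oxidoreductase at FRA16D, was not called (0.34 and 0.13, adjusted p = 0.15 and 0.645). The abundant members FAF1, TBC1D5, PTPRG, PARD3 and LPP had log2 fold changes between -0.07 and 0.26 under either siRNA and no call. Others without a call were DAB1, PARD3B, NAALADL2, CCSER1, SUPT3H, SDK1, MAGI2, IMMP2L, FRMD4A, RAD51B, RORA, TTC28, IL1RAPL1, DIAPH2, DLG2, EYS, LRP1B and PDE4D. Of the 5 longest genes CNTNAP2 alone was called: LRP1B measured 4.54 RPM without and 4.44 RPM with crotonate (-0.04, adjusted p = 0.919) and PDE4D 1.09 and 1.21 RPM (0.07, adjusted p = 0.903).

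Factors that transcription of long genes depends on changed in few cases. Of 68 genes of elongation, termination and long-gene RNA processing, 67 were expressed, and 2 rose and 1 fell with crotonate under non-targeting siRNA (median -0.06), which is 2.99% and 1.49% against 13.1% and 2.34% of all expressed genes. MLLT3, a YEATS domain reader of acylated lysine in the super elongation complex, rose from 7.57 to 16.7 RPM (log2 fold change 1.14, adjusted p = 3.77e-07), and ELL2, another subunit of that complex, from 27.0 to 42.4 RPM (0.66, adjusted p = 0.000242). SUPT16H, a subunit of the histone chaperone FACT, fell from 423 to 347 RPM (-0.29, adjusted p = 0.00567). With DAXX siRNA, MLLT3 and ELL2 rose (0.92 and 0.56) and CDK7, SUPT16H and SUPT4H1 fell (-0.34, -0.24 and -0.21). DAXX siRNA itself changed 0 of the 67 in limma, with 4 (5.97%) at an unadjusted p under 0.05 without crotonate and 6 (8.96%) with it, against 12.2% and 10.95% of all expressed genes.

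DAXX siRNA moved the long genes little. Without crotonate, 0 of the 178 were called higher and 1 lower, against 0.1% higher and 0.306% lower over all expressed genes, and the median log2 fold change was 0.02. Calls in either direction made up 0.406% of all expressed genes. Groups did not overlap for 6 long genes that were higher and 8 that were lower, against 2.69% and 3.46% of all expressed genes. The 1 gene was GRIN2B (ENSG00000273079, chr12:13437942-13981957), an NMDA receptor subunit. It measured 36.2, 36.3, 38.4 and 45.4 RPM in the non-targeting libraries and 23.0, 25.6, 24.1 and 25.2 RPM after DAXX siRNA. The groups were separate, and the log2 fold change was -0.67 (SE 0.11, adjusted p = 0.00406). With crotonate it measured 36.4, 45.3, 49.9 and 51.8 RPM with non-targeting and 37.7, 31.4, 29.6 and 28.7 RPM with DAXX siRNA, and the call was again lower although the groups overlapped (-0.52, adjusted p = 0.0213). RefSeq gives GRIN2B 444800 bases, under the span limit used here.

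With crotonate, DAXX siRNA gave 1 call higher and 1 lower among the 178, against 0.389% and 0.668% of all expressed genes and 1.06% in either direction. Groups did not overlap for 15 long genes that were higher and 5 that were lower, against 3.55% and 4.94%. NAV2, a neuron navigator like NAV3, was the gene called higher. It measured 9.64, 13.2, 13.0 and 11.5 RPM with non-targeting siRNA and crotonate and 19.7, 19.1, 17.7 and 15.3 RPM with DAXX siRNA and crotonate (log2 fold change 0.61, SE 0.128, adjusted p = 0.0207). Without crotonate it measured 8.76, 8.71, 6.76 and 9.06 RPM with non-targeting and 10.6, 11.3, 11.6 and 14.5 RPM with DAXX siRNA, a separate pair of groups that missed the threshold (0.53, adjusted p = 0.0852). NAV2 also rose with crotonate under each siRNA (0.51 and 0.58, adjusted p = 0.00971 and 0.00337). The NAV2 call with DAXX siRNA ended when crotonate library 1 or 4 of the non-targeting arm or 1 or 2 of the DAXX arm was left out (adjusted p = 0.0992, 0.0735, 0.0709 and 0.0716). Non-targeting library 2 is in neither group of this comparison, but the fit shares its estimate of the spread. Without that library the comparison counted 4 genes higher and 2 lower, with no share of all expressed genes given here. For DAXX siRNA without crotonate, leaving out any 1 library, that library among them, gave 0 to 1 higher and 1 lower.

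The 178 spans held 1318 of the 49916 Kcr regions, with a median of 4 regions in a gene, 29 genes without any and 16 genes with 20 or more. The median long gene had 0.53 regions per 100 kb and 0.581% of its span covered, against 5.15 regions per 100 kb and 8.98% in shorter expressed genes. The median shorter gene held 1 region, fewer than the 4 of the long genes, so counts and densities differ in direction. A single region gives a higher density in a shorter span, and the part of this in the difference was not tested. CAMTA1 held the most, 70 regions over 21% of its span, followed by SHANK2, a synaptic scaffold, with 62, RAD51B, a recombination factor, with 54, and PTPRN2 with 49. CNTNAP2, DLG2 and LRP1B, 3 of the 5 longest genes, held 0, and EYS and PDE4D 1 each.

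A Kcr region within 2 kb of the gene start was found for 81 of the 178 long genes (45.5%), against 68.7% of shorter expressed genes. Weighted to the levels of the long genes, the share in shorter genes was 63.1%. The gap was widest in the lower classes of level, with 28.9% against 51.4% in the lowest and 27.3% against 55.5% in the next, and narrowed to 52.3% against 66.8% and 73.3% against 78.8% in the upper classes. At RefSeq starts it was 74 of 165 long genes (44.8%). Long genes with a Kcr region at the start had a median level of 3.44 log2 RPM and those without 1.17.

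**Figure D5:**
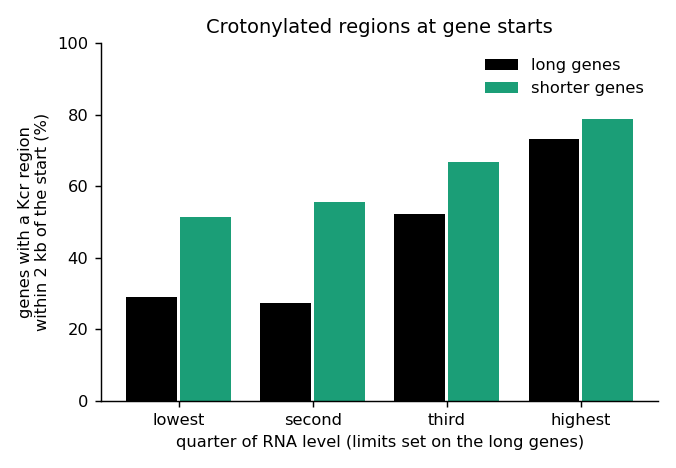
Bars give the percentage of genes with a Kcr region within 2 kb of the start, for long genes (black) and shorter expressed genes (green), in 4 classes of RNA level whose limits were set on the long genes (x axis). The share of long genes is 28.9% and 27.3% in the lower classes, 52.3% and 73.3% in the upper ones, and lies under that of shorter genes in each.

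Rises with crotonate occurred with and without Kcr at the start. Of the 81 long genes with a start region, 21 (25.9%) rose with non-targeting siRNA, and of the 97 without, 24 (24.7%) did so. With DAXX siRNA the shares were 27.2% and 36.1%. With the floor set on libraries without crotonate they were 27.3% of 77 and 22.2% of 81, and 28.6% and 35.8%. The median log2 fold changes were 0.23 with and 0.33 without a start region under non-targeting siRNA, and 0.24 and 0.35 under DAXX siRNA. Of the genes that depend on the crotonate libraries, 4 had a start region and 16 had none. With the floor set on libraries without crotonate the medians were 0.21 and 0.28 under non-targeting siRNA, and 0.24 and 0.32 under DAXX siRNA. Of the 45 genes that rose with non-targeting siRNA, 6 had no Kcr region anywhere in the span.

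No Kcr region of a long gene was called for a change in any comparison, nor was any of the 49916 regions in limma, so the background was 0% in each. At an unadjusted p under 0.05, 127 of the 1318 regions (9.64%) differed with crotonate under non-targeting siRNA against 13.3% of all regions, and 92 (6.98%) under DAXX siRNA against 8.5%. For DAXX siRNA the numbers were 36 regions (2.73%) without and 62 (4.7%) with crotonate, against 2.38% and 4.17% of all regions. Limma-voom called 0 of the 1318 in each comparison, and 1 of all regions with crotonate under non-targeting siRNA. The median log2 change with crotonate was -0.17 in the long genes and -0.19 in all regions under non-targeting siRNA, and -0.11 and -0.16 under DAXX siRNA. The sign depended on scaling, since quantile scaling gave 0.02 and 0.00 under non-targeting siRNA and limma-voom 0.07 and 0.04. At the 91 start regions of the long genes the medians were -0.27 and -0.28. With 2 samples in each crotonate group, these counts limit what could be called.

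Start regions of the genes that rose were not called. That of ATRNL1 (chr10:115092151-115095150) measured 5.99, 5.62 and 5.58 log2 scaled reads in non-targeting samples and 6.01 and 6.14 with crotonate (log2 change 0.35, SE 0.212, adjusted p = 0.475). That of ST6GALNAC3 (chr1:76074901-76075350) measured 3.78, 3.03 and 3.22, and 2.43 and 3.503 with crotonate (-0.38, adjusted p = 0.788). That of HDAC9 (chr7:18086101-18086850) measured 4.04, 3.62 and 3.87, and 3.01 and 4.09 with crotonate (-0.29, adjusted p = 0.795). The groups of the last pair of regions overlapped, and those of ATRNL1 were narrowly separate. The smallest p with crotonate under non-targeting siRNA was inside ADGRV1, an adhesion G protein-coupled receptor (chr5:90596551-90597150, -2.15, adjusted p = 0.185), followed by regions inside KSR2 (-1.998) and MIR100HG (-0.90) with the same adjusted p. Under DAXX siRNA it was inside GRID1 (chr10:86226751-86228250, -1.29, adjusted p = 0.368), followed by ZFHX3 (-0.99) and KIAA1217 (-2.01). For DAXX siRNA the smallest p was inside TBC1D5 without crotonate (-1.17, adjusted p = 0.9999) and inside CACNA1C with it (-2.40, adjusted p = 0.999).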

How the data were processed

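RNA and Kcr were measured in HCT116 cells as 16 RNA and 12 ChIP libraries, with 1 input library that was not used. The tools listed in the submitters' processing notes are Trim Galore (0.6.2 for RNA, 0.6.5 for ChIP), cutadapt 2.3, HISAT2 2.2.1, Bowtie2 and MACS, with the build GRCh38. Both deposited tables hold log2 values made by the authors: log2 RPM per gene, not divided by length, with no read entered as 0.9 read, and log2 reads per Kcr region after 1 factor per library. Whole reads were recovered for 100% of values (tolerance 0.01 read).

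limma 3.58.1 in R 4.3.3 was fitted to the deposited log2 values over all 17973 expressed genes and all 49916 regions, with 1 coefficient per group, a trended prior and Benjamini-Hochberg adjustment within a comparison; limma-voom on recovered reads was an alternative. Simulated counts were used to check the fits. The changed genes were placed at or above the median level, so the check does not cover weakly expressed genes. ChIP libraries 1A and 1B, which differed little beyond read sampling (chi-squared over degrees of freedom 1.01 in each pair, against 1.04 to 1.27 in other pairs), were averaged. Fold changes are log2, errors are SD over libraries and SE is from limma. A Kcr region at a start lies within 2 kb of the outermost start in the deposited table.

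The members and gene lists were chosen with earlier results of these data known. Genes were named by a rule: in each RNA comparison up to 10 called genes each way by size, with official symbol, a mean of at least 1 RPM on the log scale in the higher group and no overlap; the 8 most abundant and 5 longest; all fragile site genes; 3 genes either side of the span limit; up to 3 called elongation genes each way; and the Kcr regions of smallest p. Others were named as examples after their values were seen. Some genes the rule names are not reported here. Promoters and spans for comparison are from RefSeq (GRCh38.p14). Samples were not paired by replicate number in the main fits, since the labels do not tie the numbers to a shared culture. Same-number correlations of deviations ran from -0.25 to 0.19 in RNA, against -0.19 to 0.31 between different numbers. In Kcr they ran from -0.0015 to 0.095, against -0.095 to 0.057. These values do not settle whether the numbers mark pairs, and fits with the number as a block are given below. A floor on the libraries without crotonate was added after the data were seen. Alternatives covered scaling, level filter, pseudocount, groups fitted, replicate block, span limit, gene models and each library left out.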

Additional observations from a re-analysis of the deposited data

Results flagged for a closer look

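In 104 groups of 4 libraries looked at, 1 library lay far from the other 3 in 9, judged by its gap over the range of the group, and chance gives about 1 in 20 such groups. In the non-targeting group, library 3 was low for NAV2 (6.76 RPM, gap 0.866 of the range) and KALRN (3.21 RPM, 0.898) and high for HS6ST3 (0.374 RPM, 0.932), and library 2 was low for NAV3 (18.7 RPM, 0.91). After DAXX siRNA, library 4 was low for MCTP1 (0.443 RPM, 0.958). With DAXX siRNA and crotonate, library 2 was high for CPQ (2.06 RPM, 0.878), library 3 low for GSE1 (110 RPM, 0.899) and library 1 high for ERC1 (89.9 RPM, 0.9). With non-targeting siRNA and crotonate, library 4 was low for DAXX (95.2 RPM, 0.888). Without the library concerned, HS6ST3, KALRN, CPQ and MCTP1 remained called with crotonate.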

How the results depend on the processing

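Counts of long genes called higher with crotonate stayed within 1.5 times under limma-voom, other level filters, a pseudocount, fits of 2 groups, no trend of the prior and the replicate block. With libraries centred on the median gene, 29 were higher and 7 lower with non-targeting siRNA and 5 lower with DAXX siRNA. With quantile scaling 29 were higher and 6 lower, and 37 higher and 4 lower. The shares of all expressed genes under these scalings are given with the results. Genes called lower with crotonate under DAXX siRNA numbered 1 with limma-voom, with no level filter, with log2(RPM + 0.25) and with no trend. DAXX siRNA without crotonate had 2 lower with no trend. With crotonate it had 2 lower with limma-voom, and 0 higher and 0 lower with no trend.

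Other span limits changed the number of genes. At 400 kb (304 genes), 90 and 102 were higher with crotonate, 2 were lower with DAXX siRNA alone, and 3 were higher and 3 lower with DAXX siRNA under crotonate. At 750 kb (74 genes), 18 and 21 were higher and 1 and 1 lower with crotonate, and 0 and 0 lower with DAXX siRNA. Among genes that RefSeq also puts at 500 kb or more, a check chosen after the data were seen, 0 and 0 were lower with DAXX siRNA, since GRIN2B is shorter there. Shorter genes called higher were 13% and 12.8% without level classes and 17.4% and 16.8% with official symbols only.

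Leaving out each library in turn, the genes higher with crotonate ranged from 36 to 48 with non-targeting and from 44 to 63 with DAXX siRNA, and those lower from 1 to 3 under each. DAXX siRNA gave 0 to 1 higher and 1 to 1 lower without crotonate, and 0 to 4 higher and 0 to 2 lower with it. The interaction stayed at 0. Shares of all expressed genes in these RNA fits are not given here, so the ranges do not separate the long genes from all genes. Called Kcr regions ranged from 0 to 2 and from 0 to 8 with crotonate, the highest without crotonate library 2 of each arm (0.152% and 0.607% of member regions, against 0.0881% and 0.791% of all).

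With the replicate number as a block, crotonate gave 49 higher and 3 lower, and 62 higher and 2 lower. Over all expressed genes the block gave 14.6% and 2.87%, and 14.4% and 3.25%. DAXX siRNA gave 1 higher and 1 lower without and 2 higher and 2 lower with crotonate. Over all expressed genes these were 0.217% and 0.434%, and 0.545% and 0.862%. For Kcr the block called 6 member regions with crotonate under non-targeting siRNA (0.455%, against 0.821% of all), and 2 were called (0.152%) with 1A and 1B kept apart and with only the 2 groups compared, against 0.194% and 0.128% of all. The causes were not tested. No call of the 26 named gene comparisons changed sign, and those of NAV2, NAV3 and IQCJ-SCHIP1 were lost in 5, 3 and 15 of 25 settings. Genes of a few reads per library limit what depth can show.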
